A study of Arabidopsis thaliana with 4 samples.

Results

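The genes described here were taken, by their signal, as already expressed in wild-type (WT) Arabidopsis seedlings after osmotic stress. They were at several times that level in the mutant ced1. They were chosen by their measured signals, as the probe sets with a signal of 100 or above on both WT arrays and with a lower ced1 signal at least 3 times the higher WT signal. This rule was met by 150 of 22746 probe sets, which is 1.17% of the 12875 probe sets whose WT signals both reached 100. That floor lies under the median signals of the WT arrays, 156.3 and 173.3, and detection calls were not used. Genes with UGT, CYP or ArthCp names were to be left out, and no probe set that met the rule had such a name in the gene tables used. The 78 members with no entry in the probe table could not be checked by name. Since the rule uses the difference between ced1 and WT, that difference is described for the members without a test.

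Transcript levels came from 4 one-colour Affymetrix arrays with RNA of seedlings 16 days old, kept for 6 h on 40% polyethylene glycol (PEG), a polymer that draws water out of plants. The WT group (gl1-Col0) and the ced1 group (ced1 in gl1-Col0) each have 2 arrays, labelled biological replicates 1 and 2, and all 4 arrays share the PEG treatment and the gl1 background, in which leaf trichomes are missing. In the literature ced1 is an allele of BODYGUARD, a cuticle gene, and was found by its weak stress induction of NCED3, a gene of abscisic acid (ABA) synthesis. The comparison addresses which transcripts differ in ced1 under osmotic stress; seedlings kept without PEG were not analysed here, so the values are levels under stress, not responses to it.

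The probe table names 1 gene for 70 of the 150 members, several genes for 2, and holds no entry for 78, which go by probe ID only. The 70 genes are at 70 different loci. A role from general knowledge was set beside 57 of them, grouped here as the cell wall and matrix, lipid transfer and lipid metabolism, receptors and regulators, aspartyl proteases, defence and stress proteins, the chloroplast, and enzymes. The other 13 genes are given no role.

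As background, a growing plant cell enlarges when enzymes and other secreted proteins loosen its wall, and drought stress commonly slows this growth and lowers the transcripts of photosynthesis. ABA carries much of that stress response, raising genes of late embryogenesis abundant (LEA) proteins and dehydrins. The cuticle, a layer of cutin and wax on the epidermis, limits water loss, and lipid-transfer proteins, small secreted proteins with a lipid-binding pocket, are abundant at the plant surface.

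Every array held the same number of probe sets, with median signals of 156.3 and 173.3 in WT and 186 and 187.5 in ced1 (MAS5 signal units, linear). Over the 13648 probe sets that passed a filter on low signals, log2 signals correlated with r = 0.970 between the WT arrays, 0.989 between the ced1 arrays, and 0.839 to 0.874 between genotypes, a description across genes. In limma with Benjamini-Hochberg adjustment (threshold 0.05), 3161 probe sets were higher in ced1 (23.2%) and 2626 were lower (19.2%). Without ced1 array 1 these counts were 1313 and 1426, and without ced1 array 2 they were 1200 and 1329. With equal array medians, a scaling that moves the median log2 difference over tested probe sets by -0.18, 2154 were higher and 3452 lower. All 150 members passed the filter on low signals and all 150 were called higher; as the rule chose them on this contrast, nothing is read from that count beside the 23.2%.

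The check of the tissue used marker genes. Of 8 leaf mesophyll markers, 4 have a named probe set (LHCB4.2, PSBY, PSAN and RCA), and their summed signal was 29265.9 and 43098.6 on WT arrays 1 and 2 and 66543.1 and 70589.5 on the ced1 arrays. Of 8 root markers, 3 have one (PYK10, EXPA7 and EXPA18), with sums of 9787.6 and 9693.5 in WT and 6535.7 and 6064.4 in ced1. In the guard cell list, FMA and SPCH summed to 184.6 and 133.4 in WT and 301 and 281.9 in ced1. SPCH, at 8.9 and 40.5 in WT and 109.6 and 126.5 in ced1, was under the filter on low signals and not tested. FMA differed by 0.38 ± 0.30 and was not called. No epidermal, vascular or trichome marker of the lists has a named probe set. The leaf sum was higher in ced1. The root sum was lower and nearly all PYK10, at 9611.5 and 9388.9 in WT and 6310 and 5868.6 in ced1, while EXPA18 differed by -0.06 ± 0.23 and EXPA7 was under the filter on low signals and not tested. Whether these shifts take part in the differences of the members was not tested, and in whole seedlings more cells of a type and more RNA per cell cannot be told apart.

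Member levels spanned a wide range. The mean WT signal of the 150 members ran from 103.3 to 3060 with a median of 304.4, and the mean ced1 signal ran from 403.2 to 14901 with a median of 1556. The ratio of the means had a median of 4.59 and ran from 3.13 to 27.1; it was at least 4 for 102 members, at least 8 for 13 and at least 10 for 6. On the log2(signal + 16) scale used for the differences below, the members had a median difference (ced1 minus WT) of 2.15, against 0.07 over all probe sets tested. With equal array medians the median of the members was 1.98. Within each array the typical member stood at the 60.2 and 64.3 percentile of all signals in WT and at the 90.3 and 90.5 percentile in ced1. In ced1, 77 and 78 of the 150 lay in the top 10% of the array, against 7 and 12 in WT.

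**Figure D1:**
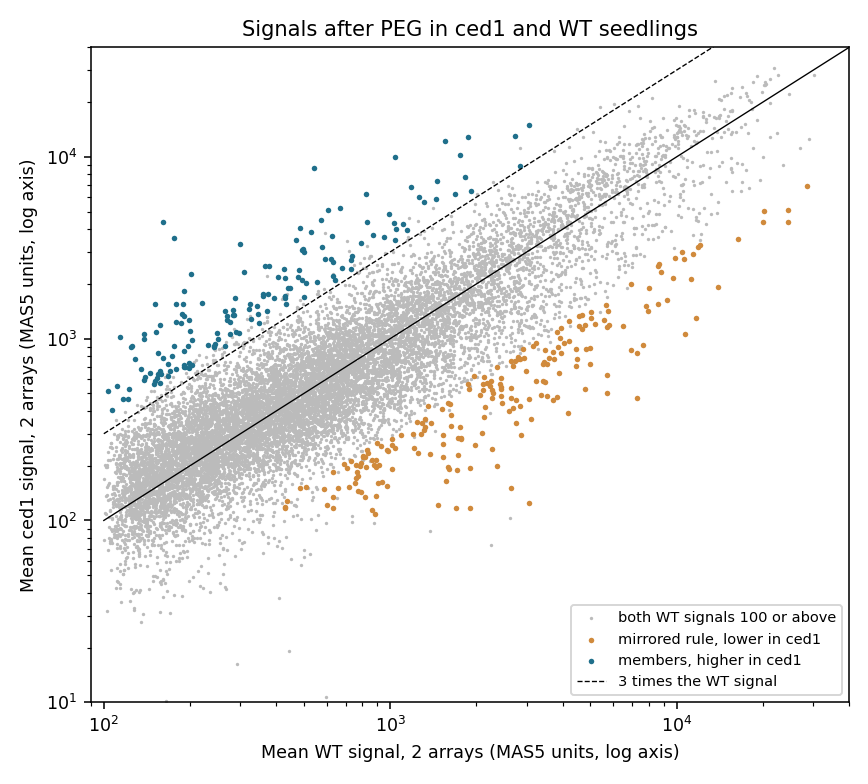
Mean ced1 signal (vertical axis) against mean WT signal (horizontal axis), both in MAS5 units on log axes, 2 arrays per genotype and 1 point per probe set. The 150 members (blue) lie above the dashed line of 3 times the WT signal; the 210 probe sets that meet the same rule in the other direction (orange) lie below the line of equal signals; grey points are the remaining probe sets with both WT signals at 100 or above.

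Near the factor of 3 the members shade into the rest without a gap: 52 members had a ratio of the lower ced1 to the higher WT signal between 3 and 3.5, and 115 probe sets had one between 2.5 and 3. Just inside lay AT3G12710, with a lower ced1 signal of 646 against a higher WT signal of 215, then 247651_at with 3472.1 against 1153.3, AT4G32460 with 1449.2 against 479.4, 254363_at with 1052.7 against 348.2 and 261196_at with 902.6 against 297.1. Just outside lay 264360_at with 864.5 against 288.4, AT5G44580 with 2986.1 against 996.9, AT3G48200 with 1502.7 against 501.9, 263706_s_at with 3445.3 against 1151.8 and SKU5 with 2397.5 against 802.3. SKU5 codes for a cell wall glycoprotein of directional root growth. At the WT floor, 14 members had a lower WT signal between 100 and 120, and 26 probe sets met the factor with one between 80 and 100. The rule mirrored to the opposite direction (both ced1 signals at 100 or above, the lower WT signal at least 3 times the higher ced1 signal) gave 210 probe sets.

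Among genes of the cell wall and extracellular matrix there were 10 members, with ratios of the means from 3.53 to 7.15. AT3G06750, a hydroxyproline-rich glycoprotein gene, gave 182.4 and 257.8 on WT arrays 1 and 2 and 1539.3 and 1608.9 on ced1 arrays 1 and 2, a log2 difference of 2.77 ± 0.19 (SE). AT5G63180, a pectate lyase-like gene (pectate lyases cut the pectin of the wall), gave 165.6 and 138.4 in WT and 1183.7 and 988.5 in ced1, a difference of 2.71 ± 0.18. WT array 2 was the higher of the WT arrays in AT3G06750 and the lower in AT5G63180.

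AT5G11420 codes for a DUF642 protein, a family of wall proteins that bind wall polysaccharides and pectin methylesterases; its signal was 359.8 and 397.2 in WT and 2662.1 and 2325 in ced1 (2.67 ± 0.15). XTH32 is of the xyloglucan endotransglucosylase/hydrolase family, enzymes that cut, or cut and rejoin, the xyloglucan tethers between cellulose fibrils. XTH32 gave 227.5 and 337.7 in WT and 1312.1 and 1387 in ced1 (2.22 ± 0.20). The other 6 were a second DUF642 gene (AT4G32460), EXO (EXORDIUM, needed for cell expansion in leaves), SAH7 (of the Ole e 1 and extensin family), the second pectate lyase-like gene AT3G53190, AT5G42720 (glycosyl hydrolase family 17) and AT4G16980 (an arabinogalactan protein). Their log2 differences lay between 1.75 and 2.40.

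AT4G16980 is the one member gene that a further named probe set also measures. The probe set that met the rule, 245318_at, gave 701.1 and 1813 in WT and 5711.2 and 6363 in ced1, while the further one, 245459_at, gave 26.7 and 34 in WT and 37.9 and 90.3 in ced1. The latter lay under the level of the filter on all 4 arrays and was not tested, so the difference rests on 245318_at alone.

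Genes of lipid transfer and lipid metabolism gave 9 members, and in all 9 WT array 2 was above WT array 1. The largest ratios of the means, 8.47 and 7.86, were in AT5G48490 and AT2G10940, which like AT2G45180 and AT4G22470 have the lipid-transfer and 2S albumin domain. AT2G10940 gave 588.4 and 747.6 in WT and 4674.9 and 5819.7 in ced1, a log2 difference of 2.95 ± 0.18. AT2G45180 was the most abundant named member in WT, at 2517.3 and 2943.1, and reached 12568.6 and 13546.5 in ced1 (2.25 ± 0.13). AT5G48490 is related to DIR1, a lipid-transfer protein of systemic resistance. Its signals were 231.1 and 981.2 in WT and 5016.5 and 5247.1 in ced1, so that the WT arrays differed 4.25-fold. Its difference was 3.37 ± 0.55 with all arrays, 2.37 without WT array 1 and 4.38 without WT array 2. The size of the step thus depends on which WT array is used.

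AT4G22470, the fourth lipid-transfer domain gene, differed by 1.94 ± 0.19. AT1G73600 codes for a phosphoethanolamine N-methyltransferase, an enzyme on the way to phosphocholine; it gave 808 and 849.3 in WT and 4196.4 and 4521.7 in ced1 (2.37 ± 0.13). The remaining members were AT1G55960, with a START-type lipid-binding domain, at 2.53 ± 0.27, the GDSL-type esterase or lipase genes AT4G18970 at 2.35 ± 0.28 and AT3G14220 at 1.77 ± 0.14, and AT4G13840. AT4G13840 (CER26), an acyltransferase-like gene of wax precursor elongation, gave 177.9 and 203.7 in WT and 696.2 and 731.2 in ced1.

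In the list of 16 lipid-transfer proteins, 4 had a named probe set, all tested. AT2G10940, AT2G45180 and AT5G48490 are members, and AZI3 (AT4G12490), the remaining one, was lower in ced1 at 119.7 and 152.1 against 279.7 and 244 in WT (log2 difference -0.88 ± 0.21, limma adjusted p = 0.0136), a call that was lost without ced1 array 1 at -0.72. AZI3 is the one tested gene of this list that the rule did not choose. Of the probe sets with both WT signals at 100 or above, 1.17% are members. The lists were chosen with earlier results of these data known, so nothing is read from the share of members in this one. Of 12 expansins, wall-loosening proteins, 5 were tested, none is a member, 4 were called higher (23.2% of all tested probe sets were) and 1 was called lower (19.2% were). Nothing is read from these shares either. EXPA4 differed by 1.15 ± 0.17 (adjusted p = 0.00230) and EXPA8, whose WT signals of 36.2 and 87.6 lie under the floor of 100, by 4.35 ± 0.31. EXPA16 was lower by -1.00 ± 0.20 (limma adjusted p = 0.00718), a call lost without ced1 array 2 at -0.96. EXPA9 and EXPB3 differed by 1.08 and 0.85 and lost their calls without ced1 array 1 at 0.90 and 0.83, EXPB3 also without ced1 array 2 at 0.87.

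Receptors, regulators and signalling proteins gave 7 members. AT1G47400 codes for an IRON MAN peptide, one of the short peptides that raise iron uptake; its signals were 227.5 and 154.6 in WT and 1960.5 and 1691.3 in ced1, a log2 difference of 3.17 ± 0.21. ORA47, an AP2/ERF transcription factor of the jasmonate response, gave 433.6 and 559.9 in WT and 2803 and 3416 in ced1 (2.61 ± 0.18). ORA47 is the one member with a transcription factor as its given role.

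Most of the others carry leucine-rich repeats, a module that binds proteins or peptides outside the cell. AT1G49750 gave 137.9 and 239.8 in WT and 1464.5 and 1636.6 in ced1, and the receptor kinase gene AT3G28040 gave 100.4 and 213 in WT and 1143.6 and 1225.6 in ced1. AT3G28040 lies at the edge of the rule, since its signal on WT array 1 is just above the floor of 100. AT3G20820 and DRT100, first found as a DNA damage toleration gene, differed by 2.46 ± 0.19 and 2.20 ± 0.18. The calmodulin-like gene AT2G41090 gave 345 and 840.4 in WT and 2784.1 and 2689.4 in ced1, a difference of 2.31 ± 0.36 that was 1.68 without WT array 1 and 2.93 without WT array 2.

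The 3 members for aspartyl proteases, acid proteases that are often secreted, all had WT array 2 above WT array 1, as did 74.7% of all members. AT3G54400 gave 215.9 and 383.9 in WT and 3448 and 3167.4 in ced1 (3.45 ± 0.25), AT1G09750 gave 364.6 and 598.9 in WT and 2305.5 and 2454.5 in ced1 (2.31 ± 0.23). AT3G52500 gave 395.7 and 471.3 in WT and 1540.6 and 1576.7 in ced1 (1.81 ± 0.15). The ced1 arrays lay within 1.09-fold of each other for each of these genes.

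Of the 5 members for defence and stress proteins, AT5G22580 had the largest ratio of all 150 members. This gene, with a stress-responsive A/B barrel domain, gave 126.1 and 195 in WT and 4394.4 and 4312.6 in ced1, a 27.1-fold ratio of the means and a log2 difference of 4.66 ± 0.20. THI2.2, a thionin (a small antimicrobial peptide), gave 183.3 and 191.7 in WT and 1310.6 and 1408.5 in ced1 (2.76 ± 0.15). AT3G10080, a germin-like gene, gave 160.4 and 160.2 in WT and 823.5 and 742.3 in ced1 (2.18 ± 0.16). AT2G43550, a defensin-like knottin gene, gave 297.2 and 241.4 in WT and 1483.6 and 1185 in ced1 (2.24 ± 0.18). The thaumatin-like gene ATLP-1 differed by 1.82 ± 0.17. The WT arrays were close together for THI2.2 and AT3G10080.

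The chloroplast group has 8 of the 70 single-gene members, with ratios of the means from 3.70 to 5.98. By their given roles, none of the 8 is a structural subunit of a photosystem or antenna. The 78 members with no entry in the probe table have no given role, so whether any of them is such a subunit is not known here. AT1G60000, an RNA-binding protein gene, gave 361.4 and 639.7 in WT and 2877.6 and 3104.6 in ced1 (2.59 ± 0.25). AT3G12930, an Iojap-related gene (Iojap-type proteins act on the ribosome), gave 353.8 and 337.9 in WT and 1289.8 and 1431.8 in ced1 (1.93 ± 0.15). CRR42, an assembly factor of the NDH complex that carries cyclic electron flow, gave 119.3 and 123.7 in WT and 462.7 and 472 in ced1 (1.81 ± 0.17). AT2G04039, a gene for a subunit of the same complex, differed by 1.87 ± 0.16. LPA19, an assembly factor of photosystem II, differed by 1.92 ± 0.20, and AT2G28605, a PsbP-domain gene, by 2.04 ± 0.19 from signals of 157.7 and 119.7 in WT. AT1G44000, a STAY-GREEN-like gene of chlorophyll breakdown, and the rhodanese-like gene AT4G27700 differed by 2.15 ± 0.22 and 2.09 ± 0.23.

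Set beside these, the list of 30 nuclear photosynthesis genes had 8 tested genes, none a member, of which 7 were called higher in ced1 (23.2% of all tested probe sets were), none was called lower (19.2% were), and LHCB4.1 at 0.19 ± 0.11 was not called. PRK, a Calvin cycle kinase, gave 3958.6 and 5012.1 in WT and 14102.4 and 14227.6 in ced1 (1.67 ± 0.14, limma adjusted p = 0.000314). LHCB4.2, an antenna protein, gave 2431.5 and 8395.7 in WT and 18849.8 and 18824.5 in ced1 (2.05 ± 0.48, limma adjusted p = 0.0135), a difference that was 1.16 without WT array 1 and 2.95 without WT array 2. SBPASE, another Calvin cycle gene, differed by 1.17 ± 0.14 (limma adjusted p = 0.000906). RCA at 0.59 lost its call without either ced1 array and with equal array medians, PSBY and PSBW lost theirs without ced1 array 2 at 0.67 and 0.66, and LHCB4.1 was called without WT array 2 at 0.29. The median difference of the 8 genes was 0.82, with 0.07 over all probe sets tested. As this list was chosen with earlier results of these data known, nothing is read from its shares or its median. LHCB4.2, PSBY, PSAN and RCA among the 8 genes are also the leaf mesophyll markers of the tissue check. The leaf marker sum is thus not a separate observation.

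Among 15 members for enzymes, AT5G44680 had the largest ratio. It belongs to a family of DNA glycosylases, enzymes that cut damaged bases from DNA, and gave 100.5 and 127.3 in WT and 1132.7 and 913.8 in ced1, an 8.98-fold ratio of the means; AT3G12710 of the same family gave 215 and 182.3 in WT and 823.8 and 646 in ced1. GSTU20, a tau-class glutathione S-transferase, was abundant at 1235.3 and 1682 in WT and 7100.7 and 7652.6 in ced1 (2.34 ± 0.17). MSRB6, a methionine sulfoxide reductase that repairs oxidised proteins, gave 177.9 and 131.6 in WT and 741.7 and 918.8 in ced1. WT array 2 was above WT array 1 in 13 of the 15, against 74.7% of all members, though not in MSRB6 or AT3G12710.

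AT2G29290 and AT2G29310, both tropinone reductase-like genes, are the only pair of named members at most 5 places apart in the order of protein-coding genes. In the TAIR10.1 gene order AT2G29300 is the 1 gene between them. AT2G29290 gave 359.2 and 695.9 in WT and 4018.3 and 3670.8 in ced1 (2.90 ± 0.28), and AT2G29310 gave 625.6 and 635.6 in WT and 2086.7 and 2310.4 in ced1 (1.77 ± 0.14). AT2G29300 went the other way, with 670.5 and 739.8 in WT and 355.9 and 520 in ced1 (-0.69 ± 0.20). These relatives have similar sequences, and cross-hybridisation between their probe sets was not checked.

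AT2G31790 and IAGLU code for UDP-glucosyltransferases, though neither carries a UGT name in the tables; IAGLU joins glucose to the auxin indole-3-acetic acid. AT2G31790 gave 315.3 and 328.4 in WT and 1452.1 and 1469.1 in ced1 (2.13 ± 0.14), and IAGLU gave 172.7 and 208.2 in WT and 663 and 731.4 in ced1 (1.79 ± 0.17). The remaining enzyme members lay between 1.72 and 2.44: a sulfotransferase gene (AT2G03750), an oxidoreductase gene (AT1G14345), a berberine bridge enzyme-like gene (AT5G44400), the hydrolase genes AT3G10840 and AT5G02230, the isoflavone reductase-like gene AT1G75280 and a FAD-dependent oxidoreductase gene (AT3G09580).

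The 13 members with no given role had ratios of the means from 3.58 to 10.3. AT5G55620 gave 140.4 and 160.6 in WT and 1440.7 and 1667.9 in ced1, the highest of these ratios. AT3G22210 gave 493.2 and 471.5 in WT and 4269.9 and 3901.6 in ced1, AT5G38980 gave 1269.5 and 1103.3 in WT and 6994.4 and 6623.5 in ced1, and AT5G01015 gave 107.8 and 142 in WT and 966.7 and 836.1 in ced1. Among probe sets with no gene in the probe table, 260221_at gave 572.8 and 511.2 in WT and 8851 and 8506.9 in ced1, a 16.0-fold ratio, and 263034_at gave 110.5 and 241.8 in WT and 3798.1 and 3366.7 in ced1, a 20.3-fold ratio. Next among these by the ratio of the nearest arrays came 253040_at with 198.7 and 204.6 in WT and 2464.1 and 2079.5 in ced1, 246004_at with 1254.1 and 820.6 in WT and 9575.5 and 10348.8 in ced1, and 256299_at with 833.8 and 810.9 in WT and 6121.5 and 6334.5 in ced1. The highest ced1 signals of all members were those of 264371_at, at 14626.3 and 15175.6 from 2446.5 and 3674 in WT. The most abundant members in WT beside it and AT2G45180 were 259892_at, 254102_at and 257008_at, with 2888 and 2805, 1916.2 and 1907.2, and 1765.4 and 1959.5.

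**Figure D2:**
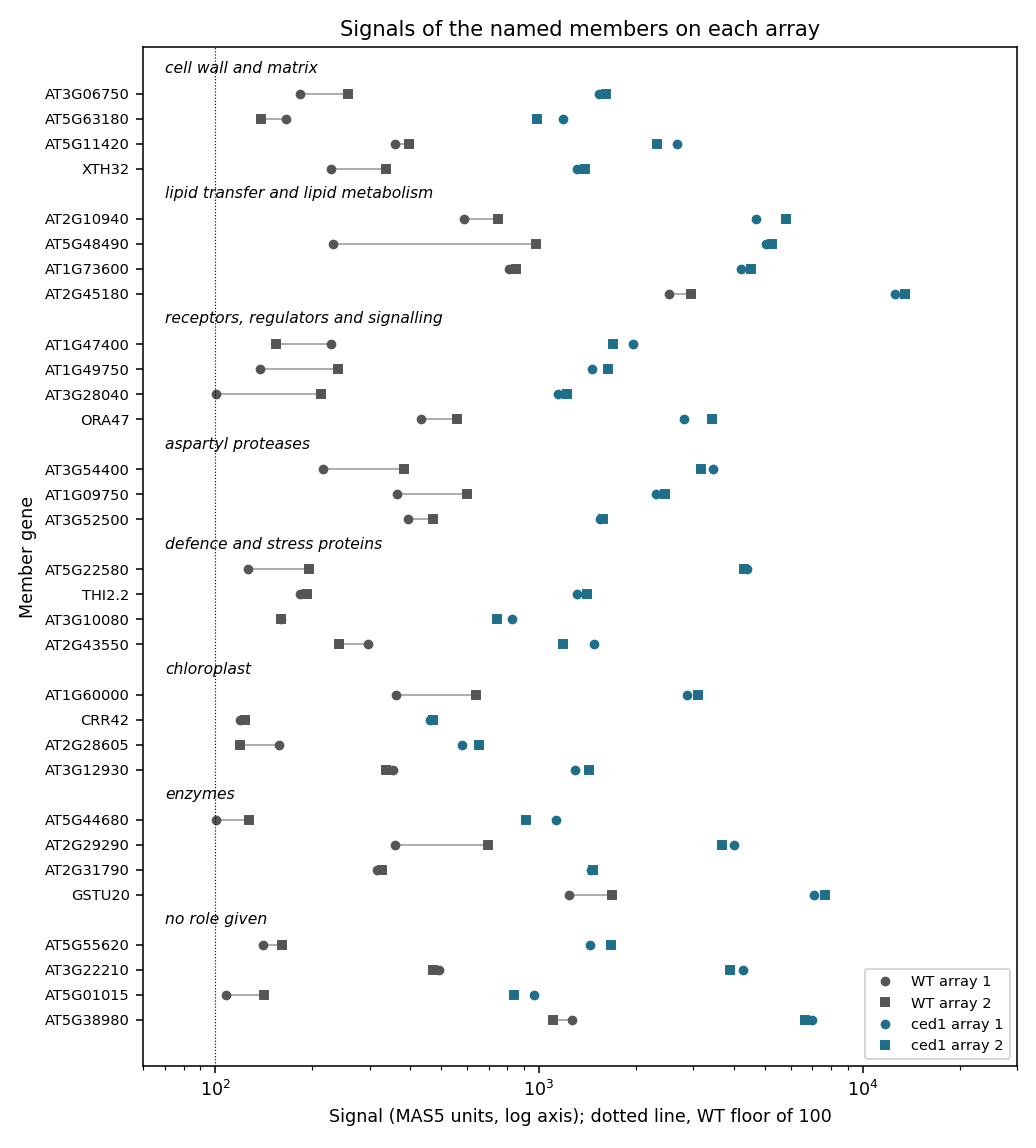
Signal on each of the 4 arrays (horizontal log axis, MAS5 units) for up to 4 single-gene members per role, those with the largest ratio of lower ced1 to higher WT signal; grey symbols are WT, blue symbols are ced1, circles array 1 and squares array 2, with no error bars. The ced1 symbols lie close together, while the WT symbols of AT5G48490 lie at 231.1 and 981.2.

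Relatives of the members were compared to see how far the difference extended in each family. These families were compiled after the members were known, so their values are a description with no test, and the rule chose the members for their high values. The 6 other tested tropinone reductase-like genes of chromosome 2 ran from -0.69 to 2.51; AT2G29320 was at 2.51 ± 0.26, but from WT signals of 81.5 and 144.5, the first of which misses the floor of 100. The 4 other tested DUF642 genes ran from 0.10 to 0.94. The 10 other tested aspartyl proteases ran from -1.67 for AT5G37540 to 1.79 for AT1G66180; both ced1 signals lay above both WT signals in 5 of them (41.1% of all probe sets tested did so) and below in 3 (33.6%).

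XTH16, XTH18 and XTH19, the other tested XTH genes with XTH names, differed by 2.19 ± 0.19, 1.08 ± 0.19 and 1.32 ± 0.15, of which XTH16 had WT signals of 86 and 71. The thionin gene AT1G66100 was at 1.88 ± 0.32 from WT signals of 174.9 and 80.4, and the knottin genes AT2G43530 and AT2G43535 were at 1.26 ± 0.15 and 0.50 ± 0.18. The 7 tested GSTU genes other than GSTU20 ran from -0.98 for GSTU28 to 1.06 for GSTU27. MSRB5 and MSRB9 were at 0.80 and 0.62 and MSRB3 at -0.68, against 2.31 for MSRB6. CRR41, CRR28 and CRR21 were at 1.51, 0.97 and 0.19, and LPA2, LPA66 and LPA1 at 0.95, 0.76 and -0.07.

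**Figure D3:**
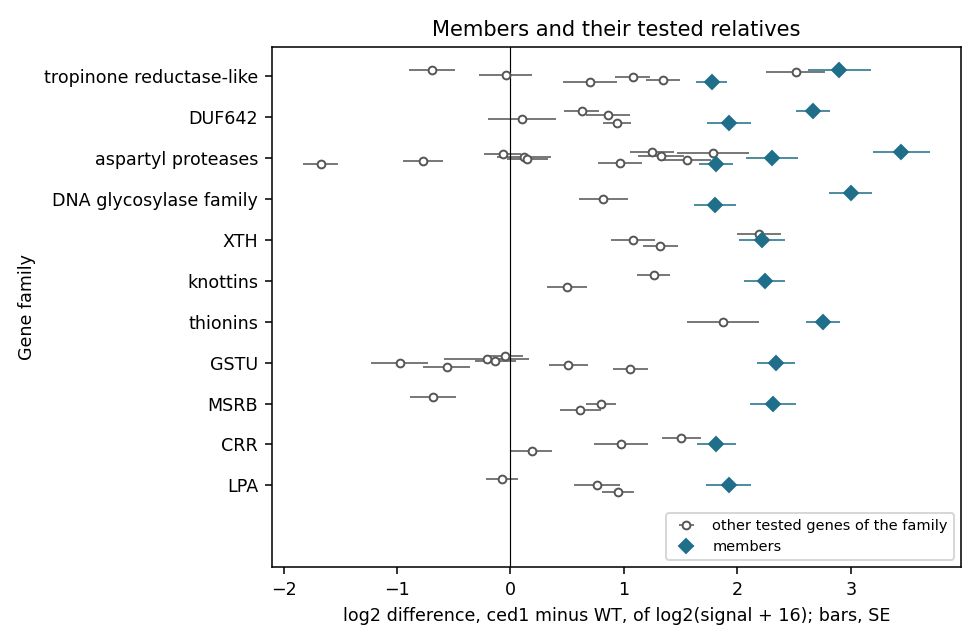
Log2 difference (ced1 minus WT, horizontal axis, bars are SE) for members (blue diamonds) and the other tested genes of their families (open circles). The rule chose the members for high values, but AT2G29320, not a member, lies at 2.51, above the member AT2G29310 at 1.77. XTH16, not a member, lies at 2.19, close to the member XTH32 at 2.22. The other GSTU genes lie between -0.98 and 1.06 and the other DUF642 genes between 0.10 and 0.94.

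The 2 WT arrays differed from each other although the rule treats them alike. WT array 2 was above WT array 1 for 112 of the 150 members (74.7%), against 55.1% of the 12875 probe sets with both WT signals at 100 or above. In the 210 probe sets of the opposite rule it was above in 34 (16.2%). The median log2 ratio of WT array 2 to array 1 was 0.21 in the members, 0.04 in the 12875 and -0.23 in the opposite set, so WT array 2 lay nearer to ced1 than array 1 in both directions. The leaf marker sum given above was likewise higher on WT array 2 than on WT array 1, and its part in this was not tested.

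The WT arrays lay 2-fold or more apart for 14 members, with array 2 higher in all 14, and the ced1 arrays did so for none. The 5 named ones of these were AT5G48490, AT4G16980, AT2G41090, AT3G01060 and AT3G28040. AT3G01060 gave 156.2 and 417.3 in WT and 1589.1 and 1761.5 in ced1, a difference of 2.63 that was 1.96 without WT array 1 and 3.29 without WT array 2; AT4G16980 moved from 2.40 to 1.72 and 3.08 in the same way. Among probe sets with no named gene, 258239_at gave 377 and 2730.4 in WT and 12412.9 and 11955.7 in ced1, a difference of 3.55 that was 2.15 without WT array 1 and 4.96 without WT array 2. Leaving out WT array 1 or 2 also moved 254564_at from 2.80 to 1.86 or 3.73, 257311_at from 2.43 to 1.74 or 3.13 and 267516_at from 2.40 to 1.68 or 3.11. The typical member had a higher-to-lower ratio of 1.22 between the WT arrays and of 1.08 between the ced1 arrays, against 1.18 and 1.09 in the 12875 probe sets. With the rule applied without WT array 1, 217 probe sets met it, and without WT array 2, 359 did.

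**Figure D4:**
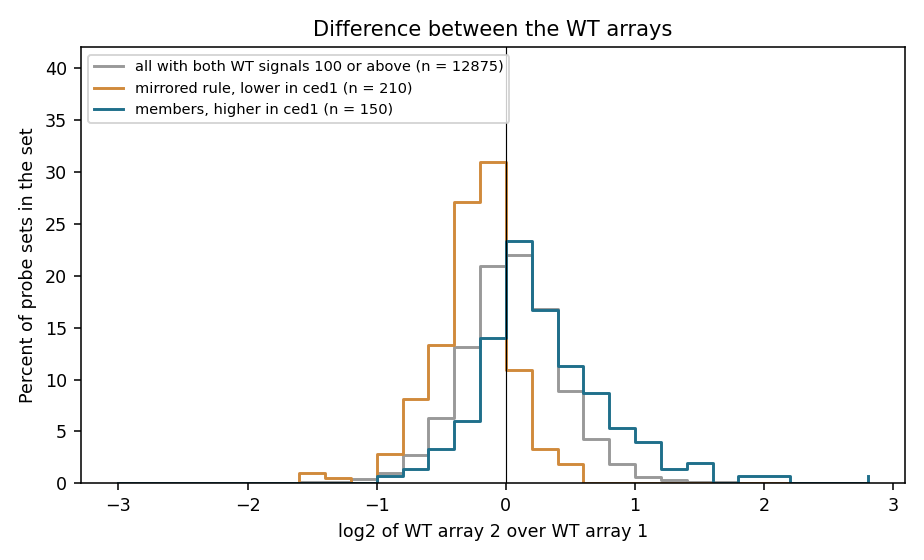
Distribution of log2 of WT array 2 over WT array 1 (horizontal axis) as a percentage of the probe sets in each set (vertical axis). The members (blue, n = 150) lie to the right of all probe sets with both WT signals at 100 or above (grey, n = 12875), and the mirrored set (orange, n = 210) lies to the left.

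The other lists of growth hormones gave few named probe sets and no further member except EXO. Of 25 auxin entries 1 was tested, GH3.3, which conjugates auxin to amino acids and was lower at 181.7 and 227 in ced1 against 619.5 and 343.5 in WT (-1.12 ± 0.28, limma adjusted p = 0.0170), a call lost without ced1 array 1 at -0.98. Of 12 gibberellin entries 1 was tested, the receptor gene GID1A, which differed by -0.06 ± 0.19 and was not called. No aquaporin and no fasciclin-like protein of the lists has a named probe set, so these families were not analysed here. All 6 tested genes of the ABA and dehydration list were called lower in ced1 (19.2% of all tested probe sets were), with a median of -1.98. Being lower, none of them could meet the rule. This list too was chosen with earlier results of these data known, so nothing is read from its share.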

How the data were processed

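The deposited values are linear intensity signals, 1 per probe set, which the authors made with MAS5, according to what the submitters' processing notes list. Its version, scaling target and build are not stated in these sources. Trimmed means were 495.2 to 495.8 on each array, and detection calls were not used. The titles call the replicates biological; nothing says how they were grown, so p-values measure the spread between these samples, and with so few arrays precision is low.

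Genotypes were compared on log2(signal + 16) with limma 3.58.1 in R 4.3.3 (eBayes with an intensity trend). The 9098 probe sets below the 40th percentile of mean log2 signal (about 102.7) were left out, and p-values were adjusted over 13648. An exact permutation test (two-sided) cannot go below p = 0.333 with these arrays.

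The probe table names 1 gene for 13513 probe sets, of which 13436 matched the TAIR10.1 gene table, several for 503, and none for 8730. Members and lists were chosen with earlier results of these data known, and roles were set from general knowledge. Set to be named were the 10 single-gene members with the largest ratio of the lower ced1 to the higher WT signal and up to 4 per role. Added to these were the 5 members with the highest WT mean and the 5 probe sets on each side of the factor. From each list up to 3 genes with the largest difference were to be given, but no gene of the ABA and dehydration list is named. Most of the genes so chosen, but not all, are given with the signal of every array. Others were chosen after their values were seen. Sequences were not analysed here. In simulated data over 13648 probe sets, 57 of 100 differences of 2 on the log2 scale and 16 of 100 of 1 were recovered, with no false call. Only these probe sets were changed there, a far smaller share than the 23.2% and 19.2% called in the data. The adjusted threshold was thus stricter in the simulation, so its shares do not give the recovery or the false calls of this comparison.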

Additional observations from a re-analysis of the deposited data

How the results depend on the processing

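The rule chose 150 probe sets, and its own settings moved this count: 570 with a factor of 2, 64 with a factor of 4, 88 with a WT floor of 200 and 227 with a WT floor of 50. With equal array medians it chose 121, of which 116 are members, and with quantile normalization 168, of which 148 are members; leaving out the 2 glucosyltransferase genes, an alternative chosen after seeing the data, left 148. Leaving out 1 array in turn gave 171 to 359 by the rule, 1200 to 4535 probe sets called higher (3161 with all arrays) and 1329 to 3333 called lower (2626); the lone array is then assumed to vary like the other genotype. The median log2 difference of the members ran between 1.98 and 2.28 in every alternative run. As the rule chose the members on this contrast, such values say nothing about their stability. All 150 were called under each alternative except the 60th percentile filter, which left 144 of them to be tested and called. With the replicate number as a block, 3608 were called higher and 2951 lower; the numbers share no stated day or batch, and the deviations of same-numbered arrays correlated at r = 0.09. Without WT array 2, GID1A turned to 0.19, EXPA18 to 0.15 and FMA to -0.024, none of them called with all arrays (-0.06, -0.06 and 0.38). Over the arrays left out, GID1A ran from -0.30 to 0.19, EXPA18 from -0.27 to 0.15 and FMA from -0.024 to 0.79, where it was called. RCA at 0.59 lost its call with equal medians (0.40), without the filter, without the trend and without either ced1 array.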
